A study of Mus musculus with 23 samples.

Results

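The antisense gene pair Airn and Igf2r and their neighbours Mas1, Slc22a2 and Slc22a3 lie together on mouse chromosome 17, and the RNA contacts of CTCF across them are described here. The members were these 5 genes of the 55413 in the GENCODE annotation, and a site was assigned to a member when it lay inside the gene body on the gene's own strand. Together they held 729 of the 1346716 called sites in 6 lists, which include those of controls without crosslinking. CTCF, a zinc finger protein of chromatin that also binds RNA, was profiled by iCLIP2. In this assay protein is fixed to RNA with UV light, and the reverse transcriptase stops beside the nucleotide that was fixed.

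E14 mouse ESCs (embryonic stem cells) were compared with NPCs (neural progenitor cells) obtained from them after 2 days of differentiation. All groups carried the CTCF-AID2 degron on endogenous CTCF and received 1 µM 5-Ph-IAA and 1 µg/mL doxycycline for 24 hours, which removes that protein and induces a Flag-Halo-tagged rescue from the Tigre locus. The rescue was wild type (WT) or ΔZF1, a mutant of zinc finger 1, and each rescue line was 1 clone. ESC WT, ESC ΔZF1 and NPC ΔZF1 had 4 libraries each and NPC WT had 3, all crosslinked with 400 mJ/cm2 at 254 nm. The controls without crosslinking, ESC noXL and NPC noXL, had 4 libraries each and came from the WT rescue line, so the mutant line had no such control here. The authors merged the libraries of a group before sites were called. Each group therefore has 1 list, no replicate error and no test, and every range given after a value is a 95% interval of counting error only.

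Airn is a long, mostly unspliced nuclear RNA that is made from the paternal chromosome and runs antisense through part of Igf2r. Its transcription silences Igf2r in cis on that chromosome, and in the placenta the RNA also acts on the more distant genes Slc22a2 and Slc22a3. In undifferentiated stem cells Airn is hardly made and Igf2r is expressed from both chromosomes, and the imprinted pattern appears as cells differentiate. Igf2r encodes the receptor that carries mannose 6-phosphate tagged enzymes to lysosomes and clears the growth factor IGF2. Slc22a2 and Slc22a3 encode transporters of organic cations, and Mas1 encodes a G protein coupled receptor of the angiotensin system. The lists do not tell the parental chromosomes apart, and RNA abundance was not analysed here. Fewer cells that make an RNA, less RNA per cell and less contact per molecule cannot be told apart from site counts.

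In mm10, Airn runs on the plus strand at chr17:12741311-12860136, a length of 118.826 kb. Igf2r runs on the minus strand at chr17:12682406-12769664, a length of 87.259 kb with 48 exons. Airn begins inside intron 2 of Igf2r, 28.353 kb from the Igf2r start, and both gene bodies share 28.354 kb that holds exons 1 and 2 of Igf2r. Mas1 lies on the minus strand at chr17:12841079-12868143 and overlaps the far end of Airn. Slc22a2 is on the plus strand at chr17:12584132-12628488 and Slc22a3 on the minus strand at chr17:12418960-12507704. The strand of every site is given, so contacts with the opposed RNAs could be separated.

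The sequences below are examples of the called positions. The first set holds the 4 Airn sites with the highest NPC WT scores among those that also had an NPC ΔZF1 site within 5 nt and no NPC noXL site within 5 nt. Each window is 29 nt of the plus strand of the mm10 reference, 5′ to 3′, and the capital letter marks the crosslinked nucleotide, with T standing for uridine.
Airn 3.215 kb from its start, chr17:12744512-12744540: ctcaaatactgttgTgttgattttgttag
Airn 30.588 kb, chr17:12771885-12771913: acaattggatatttTactaacagtattct
Airn 6.824 kb, chr17:12748121-12748149: aaagttataaatttTttcccagtttgtgt
Airn 8.429 kb, chr17:12749726-12749754: tgaggggtgttcctTctgccccaagtaca

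This set is drawn from 15 of the 153 NPC WT sites, and all 4 nucleotides were uridines in intron 1 of Airn. The site at 3.215 kb was called at the same nucleotide in both lists, with a PureCLIP score of 11.6 in NPC WT and 13.2 in NPC ΔZF1. A higher score of this site caller means more support for crosslinking, but the score is not scaled to depth. Scores of different lists are printed side by side but are not compared, and 1 score minimum over all lists is used only among the alternatives at the end. The highest Airn score in NPC WT, 22.5, belonged to a site without a ΔZF1 or noXL partner at 31.254 kb. The next 2 sites without a partner, at 34.502 and 42.478 kb, both scored 17.3 and were cytosines in repeat-masked sequence. Another 5 Airn sites of NPC WT had a noXL site within 5 nt, and the highest-scoring of them, at 32.037 kb with a score of 5.41, was a cytosine.
Airn 31.254 kb, chr17:12772551-12772579: cagagagacacattTgtgtctgtggtgct
Airn 34.502 kb, chr17:12775799-12775827: aatttttcctgaggCagacacagatgaaa
Airn 42.478 kb, chr17:12783775-12783803: ctgagggaagatggCaggaactccaacag
Airn 32.037 kb, chr17:12773334-12773362: catcactataatcaCaacacctgggaggc

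The matching set for Igf2r was chosen by the same rule in the ESC lists. These windows are written on the minus strand, which is the strand of the Igf2r RNA.
Igf2r intron 36, chr17:12694242-12694270: acaccggtagaatgTgctgaaggaggcag
Igf2r exon 25, chr17:12704753-12704781: cagaagacaacagtTttaacttgggtgtg
Igf2r exon 3, chr17:12740292-12740320: atccagactagcatTacatttctgtgtgg
Igf2r exon 7, chr17:12731493-12731521: ttctgcaggctcgtTctgacttatgtgaa

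The 3 exonic windows lie in coding sequence. The crosslinked nucleotide of the intronic window lies in repeat-masked sequence and had the highest score of the Igf2r sites in ESC WT, 35.4.

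Airn and Igf2r changed places between the cell types. In the WT, ΔZF1 and noXL lists of ESCs, Airn held 0, 0 and 3 sites, and in those of NPCs it held 153, 148 and 73. In the same order, Igf2r held 182, 79 and 52 sites in ESCs and 20, 11 and 5 in NPCs. Every NPC list was above every ESC list for Airn, and every ESC list was above every NPC list for Igf2r. The noXL lists followed the same order as the crosslinked ones, so the shift between cell types was present without UV as well.

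Per 10 kb of gene, Airn in NPCs had 12.9 sites for WT (10.9 to 15.1), 12.5 for ΔZF1 (10.5 to 14.6) and 6.14 for noXL (4.82 to 7.72), by exact Poisson intervals. Igf2r in ESCs had 20.9 for WT (17.9 to 24.1), 9.05 for ΔZF1 (7.17 to 11.3) and 5.96 for noXL (4.45 to 7.81). These densities are not scaled to the lists, which differ in length. For Airn the unscaled WT and ΔZF1 intervals overlapped and both lay above noXL, while per 100000 genic sites of each list the Airn values were 66.5 (WT), 96.6 (ΔZF1) and 71.6 (noXL). For Igf2r the unscaled WT interval lay above the other two, and those of ΔZF1 and noXL overlapped. Per 100000 genic sites Igf2r had 42.4, 36.3 and 34.5 in the same order. Among the genes with at least 5 sites, Airn stood at percentile 98.5 by number of sites in NPC WT but at percentile 60.01 by sites per length, since the gene is long. Igf2r in ESC WT stood at percentiles 95.3 and 56.9.

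**Figure D1:**
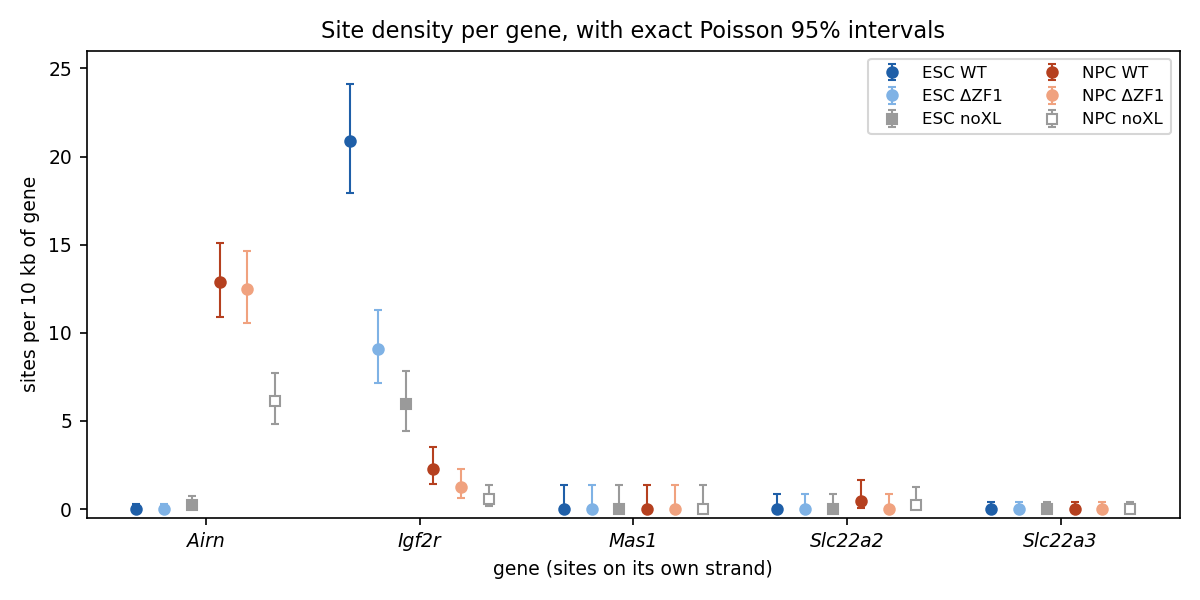
Sites per 10 kb of gene for the 5 members, each with its 6 lists; points are counts on the gene's own strand divided by its length, and bars are exact Poisson 95% intervals. Airn is near 0 in the ESC lists and between 6.14 and 12.9 in the NPC lists, Igf2r runs from 20.9 in ESC WT to 0.573 in NPC noXL, and the other genes are at or near 0 throughout.

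The neighbours were almost bare. Mas1 and Slc22a3 held 0 sites in all 6 lists. The exact Poisson interval of a count of 0 reaches up to 1.36 sites per 10 kb for Mas1 and 0.416 for Slc22a3. Slc22a2 held 2 sites in NPC WT, 1 in NPC noXL and 0 in the other lists. The noXL site and 1 of the WT sites fell on the same guanine in intron 2, with scores of 34.7 without UV and 21.4 with UV, and the other WT site was 4 nt further along.
Slc22a2 12.22 kb from its start, chr17:12596338-12596366: ggtccaaccccatgGgggaggaaccagcg

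With 2 sites in NPC WT and 1 in NPC noXL, a difference between them was not detectable in Slc22a2 at this depth. Within 500 kb of Airn the annotation holds 40 further genes. Of these, 30 had no site in any list and 7 had at least 5 sites in some list: Map3k4, Pnldc1, Mrpl18, Tcp1, Acat2, Wtap and Sod2. Tcp1, a chaperonin subunit gene and the nearest plus-strand gene with sites beyond Airn, had 121 WT sites in ESCs and 59 in NPCs.

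Ratios between lists were taken as log2 of sites plus 1, scaled to the sites of each list that lay in genes. A gene was compared when the 2 lists together gave it at least 20 sites. For WT, 6730 genes were compared, and 11.5% of them were at 1 or higher in NPCs relative to ESCs and 10.4% at -1 or lower. Airn was at 8.17, with rank 3 of these genes. Since its ESC WT count was 0, that value depends on the 1 added site, and the 95% counting interval had a lower end of 6.21 and no upper end. Igf2r was at -2.22 (-2.95 to -1.63), at percentile 3.79 of the same genes. The median gene was at 0.04.

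The other pairs of lists gave the same directions. In ΔZF1, Airn was at 7.73, with a lower interval end of 5.78 and no upper end, and Igf2r was at -2.23 (-3.23 to -1.44). There, 10.9% of the genes compared were at 1 or higher and 14.1% at -1 or lower. In noXL, Airn was at 4.77 (3.58 to 6.75) and Igf2r at -2.58 (-4.10 to -1.53), beside background shares of 11.1% and 12.3%. For Igf2r each of the 3 intervals included the ratios of the other lists, so no difference among WT, ΔZF1 and noXL was detected in its ratio between cell types. These Igf2r ratios rest on exonic sites, and with intronic sites alone, 9 in ESC WT and 3 in NPC WT, the WT ratio was -0.11 (-2.15 to 1.40).

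**Figure D2:**
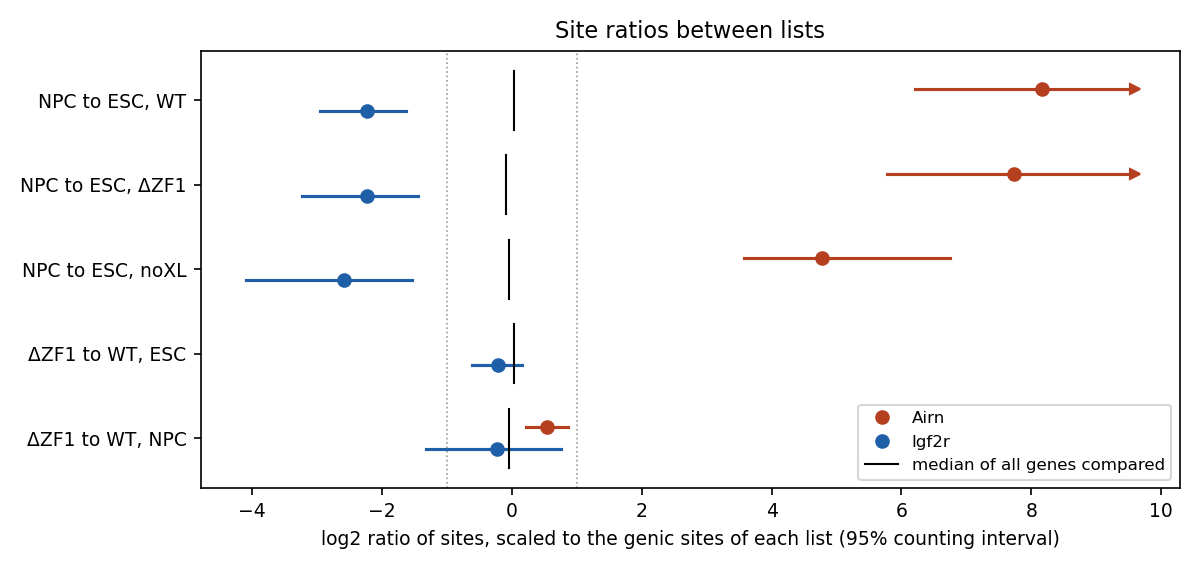
Scaled log2 ratios of sites for Airn (red) and Igf2r (blue) between pairs of lists; lines are 95% counting intervals, arrows mark an interval with no upper end because the ESC count is 0, black ticks are the median of all genes compared and dotted lines mark -1 and 1. Airn lies between 4.77 and 8.17 and Igf2r between -2.58 and -2.22 from ESCs to NPCs, while the ΔZF1 to WT ratios of both lie inside the dotted lines.

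Markers of both cell types were counted in the same way. All 5 stem cell markers examined (Nanog, Klf4, Zfp42, Tfcp2l1 and Esrrb) were at -1 or lower from ESC WT to NPC WT, against 10.4% of all genes compared, and in noXL 2 of the 4 that could be compared were, against 12.3%. Of the neural markers, Nes had 28 WT sites in NPCs and 2 in ESCs, while Sox1, Pax6, Hes5 and Zic1 had 0 in both. In noXL, Nes had 14 NPC and 0 ESC sites, Sox1 had 2 and 0, Pax6 had 1 and 0, and Hes5 and Zic1 had 0 in both.

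The pair balance was read next, as the share of sites on the Airn strand among all sites of both genes. It was 0% in ESC WT (0 to 2.07, Wilson) and 0% in ESC ΔZF1 (0 to 4.64), and 5.45% in ESC noXL (1.87 to 14.9). In NPCs it was 88.4% in WT (82.8 to 92.4), 93.1% in ΔZF1 (88.0 to 96.1) and 93.6% in noXL (85.9 to 97.2). The intervals of the 3 NPC lists overlapped, and the differences among WT, ΔZF1 and noXL in NPCs were not tested.

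Inside the 28.354 kb that both genes share, the Airn share in NPCs was 96.8% in WT (91.1 to 98.9), 100% in ΔZF1 (95.4 to 100) and 97.7% in noXL (88.2 to 99.6). These intervals overlapped those of the whole genes, and the stretch holds only 2 of the 48 Igf2r exons. Airn had 92 sites and Igf2r 3 with WT, 79 and 0 with ΔZF1, and 43 and 1 without UV. In ESCs the same stretch held 0 Airn and 8 Igf2r sites in WT, 0 and 5 in ΔZF1, and 3 and 2 in noXL. All 8 ESC WT sites on the Igf2r strand fell in its exon 1, which is 265 nt long, and left the rest of the overlap empty. Exon 2 had 2 sites in ESC ΔZF1 and 0 in ESC WT.

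Signal on the wrong strand was rare where it could have been measured. In the 58.905 kb of Igf2r that Airn does not cover, the plus strand held 0 sites in all 6 lists, while the minus strand held up to 174. In the 90.472 kb of Airn beyond Igf2r, the minus strand held 2 sites in ESC WT, 1 in ESC noXL and 0 in the others. Those 3 sites stood 54 to 59 nt upstream of the annotated Igf2r start.

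**Figure D3:**
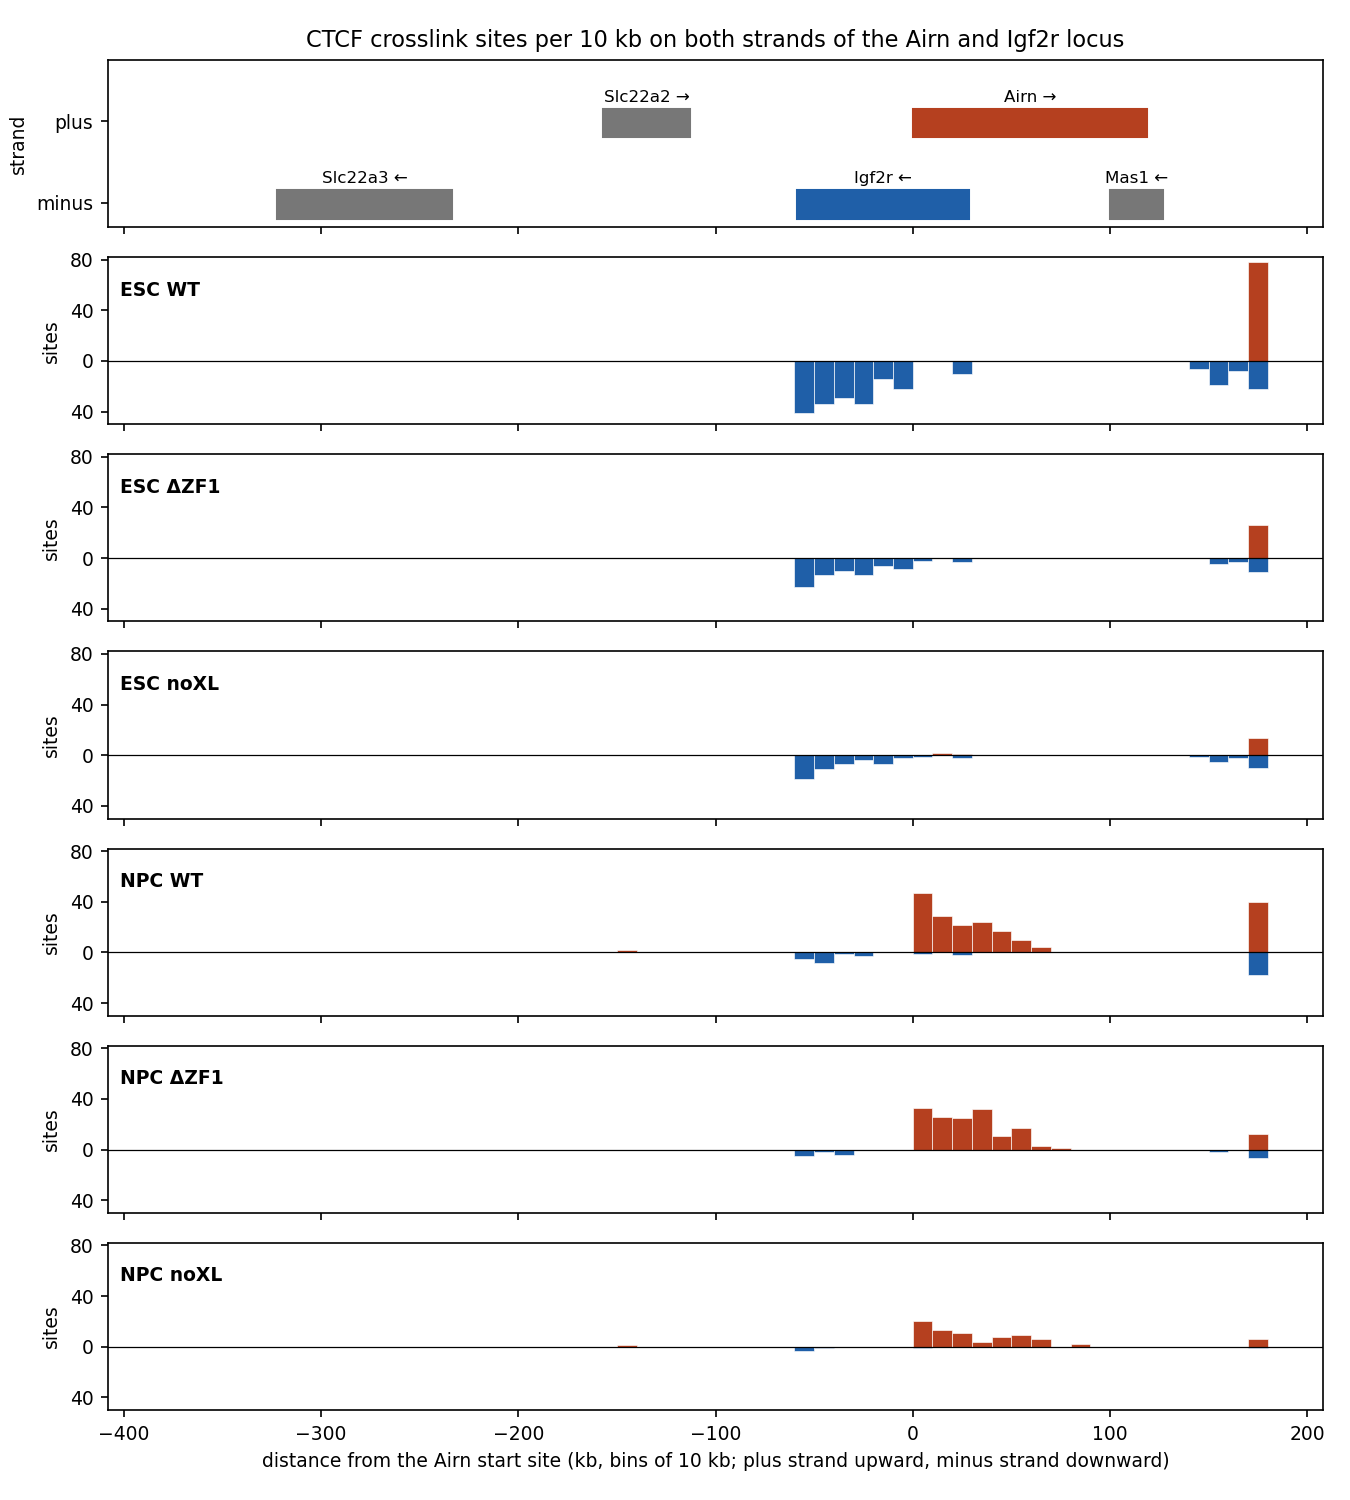
Sites in bins of 10 kb along the locus against distance from the Airn start, with the gene bodies in the top panel and 1 panel per list; red bars above the line are plus-strand sites and blue bars below it minus-strand sites. Igf2r carries the ESC signal on the minus strand, Airn carries the NPC signal on the plus strand from its start to about 70 kb, and the bars at the right edge belong to genes outside the 5 members, Tcp1 among them.

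The Airn sites were concentrated toward the start of the gene. In NPC WT the successive 10 kb bins from the start held 47, 29, 22, 24, 17, 10 and 4 sites, and 0 in each later bin. In NPC ΔZF1 they held 33, 26, 25, 32, 11, 17, 3 and 1. In NPC noXL they held 20, 13, 11, 4, 8, 9, 6, 0 and 2. All 3 lists thinned out with distance, with or without UV.

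The median site lay 20.3 kb from the start in NPC WT, 25.7 kb in ΔZF1 and 22.9 kb in noXL. The first 10 kb held 30.7% of the sites in WT (24.0 to 38.4), 22.3% in ΔZF1 (16.3 to 29.7) and 27.4% in noXL (18.5 to 38.6), and these intervals overlapped. The 5′ part up to the middle of the gene held 97.4%, 97.3% and 89.0%. The farthest site was at 65.1 kb in WT, 73.8 kb in ΔZF1 and 87.0 kb in noXL of the annotated 118.8 kb. The last 48.8 kb therefore held 0, 1 and 2 sites.

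Sites on Airn were not confined to the stretch that overlaps Igf2r. The overlap held 60.1% of them in NPC WT (52.2 to 67.5), 53.4% in ΔZF1 (45.4 to 61.2) and 58.9% in noXL (47.4 to 69.5), although it makes up 23.9% of the gene. Beyond Igf2r, Airn still had 6.74 sites per 10 kb in WT and 7.63 in ΔZF1, against 32.4 and 27.9 inside the overlap. Repeat-masked sequence, where short reads map less uniquely, made up 15.4% of the first bin, 46.1% at 40 to 50 kb, 27.9% at 50 to 60 kb, 51.2% at 60 to 70 kb, 22.6% at 70 to 80 kb and 69.2% at 80 to 90 kb, and its part in the decline was not tested. The bins from 90 to 120 kb were 28.2% to 33.5% masked and held 0 Airn sites in every list, while the bin at 40 to 50 kb held 17, 11 and 8.

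Nearly all Airn sites were in sequence that splicing would remove. In NPC WT 2 of 153 sites lay in an annotated Airn exon, both in exon 1 within 64 nt of the start. In ΔZF1 4 of 148 sites did, and in noXL 0 of 73. Exons of any Airn transcript make up 3.03% of the gene, and the WT share of 1.31% (0.359 to 4.64) included that value. Sites were spread singly over the unspliced RNA. Merging sites within 8 nt left 138 clusters from the 153 WT sites and 146 from the 148 ΔZF1 sites, and the median gap between neighbouring WT sites was 179.5 nt.

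Igf2r showed the opposite layout. In ESC WT 173 of its 182 sites were exonic, with 150 in coding sequence, 20 in the 3′ UTR and 3 in the 5′ UTR. Exons held 19.5 sites per kb (16.7 to 22.6) and introns 0.115 (0.0525 to 0.218). Of the 48 exons, 47 were hit. The last exon had the most sites, with 20 in its 3′ UTR and 5 in its coding part, followed by exon 1 with 8 and exon 34 with 7.

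The exonic layout held in the other ESC lists. In ESC ΔZF1 75 of 79 sites were exonic, over 33 exons, and in ESC noXL 50 of 52, over 26 exons. In NPC WT 17 of the 20 remaining sites were exonic, and in NPC ΔZF1 9 of 11. In ESC WT clustering differed from Airn, since the 182 sites formed 131 clusters with a median gap of 49 nt. Few Igf2r sites merged in ESC ΔZF1, with 71 clusters from 79 sites, in ESC noXL, with 52 from 52, or in NPC WT, with 19 from 20. Along the genome, the median ESC WT site lay 64.9 kb from the start.

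**Figure D4:**
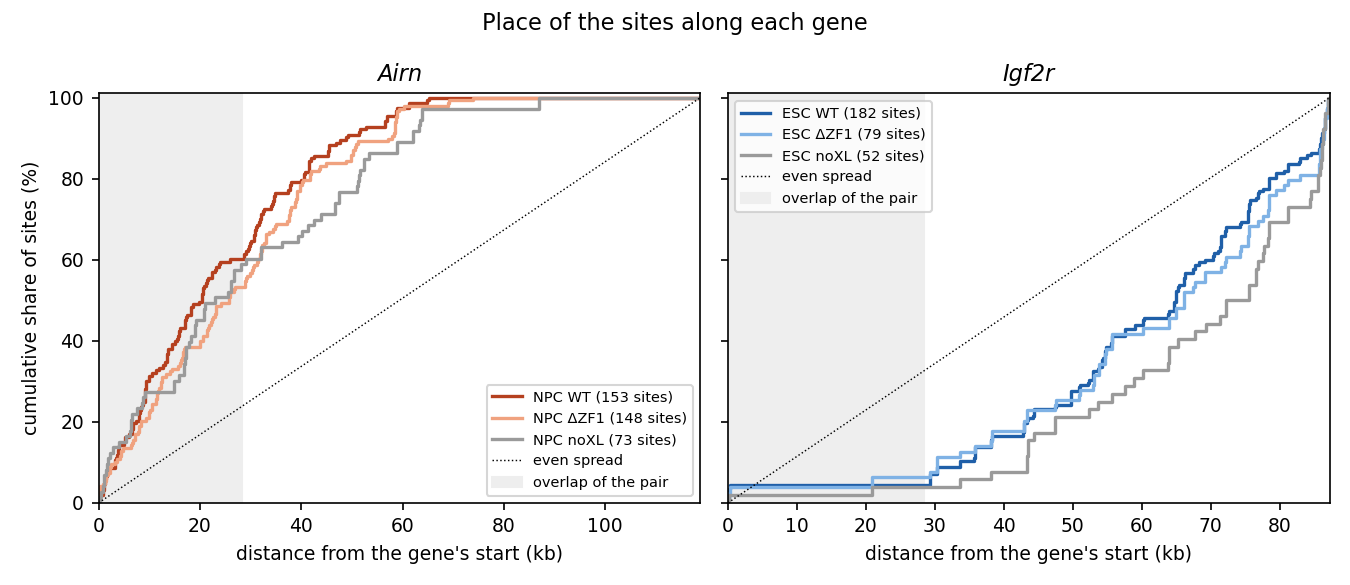
Cumulative share of sites against distance from the gene's start, for Airn in the NPC lists (left) and Igf2r in the ESC lists (right); the dotted line is an even spread and the grey band is the stretch both genes share. The Airn curves lie above the dotted line and reach 89.0% to 97.4% by the middle of the gene, and the Igf2r curves lie below it beyond the start, with 15.4% to 22.8% of the sites before the middle.

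An intronic position of Igf2r recurred across conditions. At 75.408 kb, in intron 36, a uridine was called in ESCs with a score of 35.4 for WT and 40.9 for ΔZF1, and in NPCs with 41.5 for WT and 15.9 for ΔZF1. The guanine next to it was called in the same 4 lists. No site was called in this intron in ESC noXL, and NPC noXL had 1 site, with a score of 34.4, at 75.401 kb. This is the window printed above for intron 36, and it was picked out after its values were seen. Whether the reads came from this copy of the repeat was not tested.

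Whether the contacts resembled UV crosslinks was read from the base under the site, since UV links uridine most readily. Of the Airn sites in NPCs, 62.7% were on a uridine for WT (54.9 to 70.01), 59.5% for ΔZF1 (51.4 to 67.0) and 16.4% for noXL (9.66 to 26.6). The difference from noXL was 46.3 percentage points for WT (33.5 to 56.2) and 43.0 for ΔZF1 (30.1 to 53.2). WT and ΔZF1 differed by 3.29 points, with an interval from -7.65 to 14.1 that includes 0. Uridine makes up 24.8% of the Airn sequence.

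The counts behind these shares were not scaled to the length of the lists, which differs. For WT, ΔZF1 and noXL in NPCs, Airn had 96, 88 and 12 uridine sites. At the other bases it had 57, 60 and 61. Adenine was the most frequent base in noXL, at 39.7% of the Airn sites, against 7.84% in WT.

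On Igf2r, 61.5% of the ESC WT sites were uridines (54.3 to 68.3), 48.1% of the ESC ΔZF1 sites (37.4 to 58.9) and 28.8% of the ESC noXL sites (18.3 to 42.3). In counts these were 112, 38 and 15 uridine sites beside 70, 41 and 37 at other bases. The share in WT exceeded that in ΔZF1 by 13.4 points (0.397 to 26.1). The lists as wholes had shares of 59.9%, 48.6% and 28.3% in ESCs, each inside the Igf2r interval, so Igf2r did not stand apart from its lists. For Airn the list shares were 63.9%, 58.5% and 27.9%, and the noXL share of Airn lay below that of its list.

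**Figure D5:**
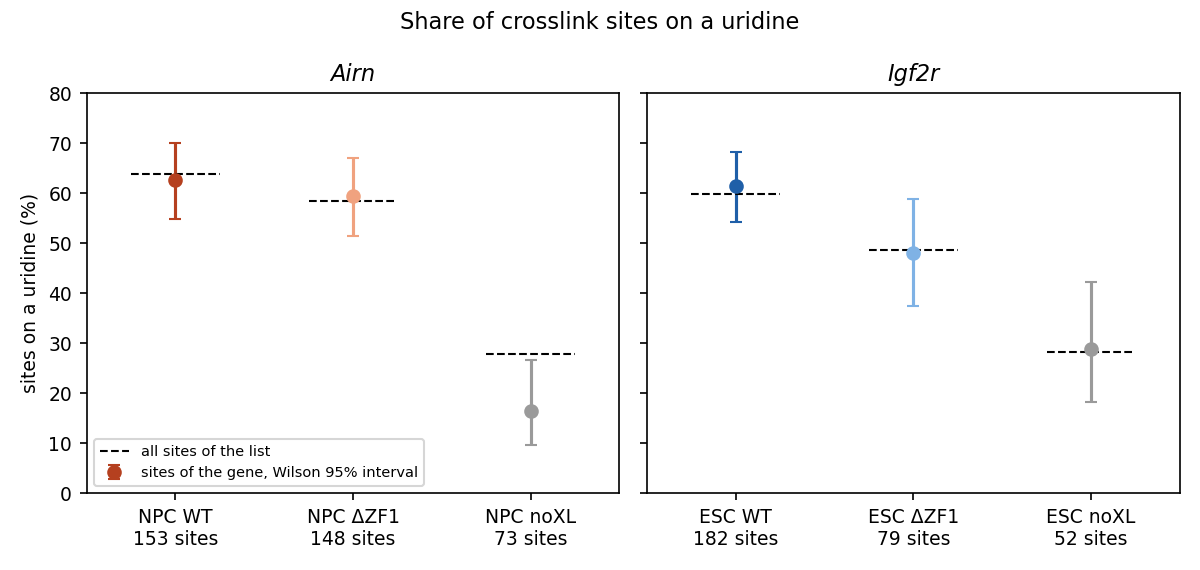
Percentage of sites on a uridine for Airn in the NPC lists and Igf2r in the ESC lists, with Wilson 95% intervals; dashed lines give the share over all sites of each list. The noXL points, at 16.4% and 28.8%, lie below all crosslinked points. The intervals of WT and ΔZF1 overlap for both genes, although the Igf2r difference of 13.4 points has an interval of 0.397 to 26.1.

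Sequence around the sites differed less. A run of 4 uridines (TTTT on the strand of the site) within 10 nt was present at 20.3% of the NPC sites on Airn for WT, 12.8% for ΔZF1 and 6.85% for noXL, beside 7.47% of all positions of the gene. WT exceeded noXL by 13.4 points (3.48 to 21.5), and WT and ΔZF1 differed by 7.42 (-1.04 to 15.8). The NPC WT list as a whole had 17.96%. Repeat-masked sequence held 16.3% of the Airn sites in WT, 20.9% in ΔZF1 and 28.8% in noXL, and 33.2% of the gene. Scores of the members were ordinary: the median Airn site stood at percentile 42.0 of the WT list in NPCs, 52.2 of ΔZF1 and 42.5 of noXL, and the median Igf2r site at 50.1, 44.7 and 36.4 of the ESC lists.

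The mutant was compared with WT within each cell type. With 153 WT and 148 ΔZF1 sites in NPCs, Airn had a log2 ratio of mutant to WT of -0.048 without scaling (-0.37 to 0.28). Among 5274 genes, 28.2% were at -1 or lower without scaling, because the ΔZF1 list is shorter. Scaled to genic sites, Airn was at 0.54 (0.21 to 0.86), at percentile 83.6, with 5.76% of the genes at 1 or higher and 7.36% at -1 or lower. Scaled to intronic sites alone, it was at -0.027 (-0.36 to 0.30), since 38.2% of the NPC ΔZF1 list and 25.9% of the NPC WT list were intronic. Whether Airn kept more contact in the mutant than other RNAs therefore depended on the sites used for scaling, and a lower count in the mutant was not detectable.

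With 182 WT and 79 ΔZF1 sites in ESCs, Igf2r had a ratio of -1.19 without scaling (-1.58 to -0.82). Of the 6518 genes compared there, 46.9% were at -1 or lower without scaling. Scaled, Igf2r was at -0.22 (-0.61 to 0.15), with 6.84% of genes at 1 or higher and 5.45% at -1 or lower. The lower Igf2r count in the mutant was thus of the size seen over the whole list. In NPCs the 20 and 11 Igf2r sites gave -0.22 (-1.31 to 0.76).

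Both members were also set against the controls without UV. NPC WT had 2.10 times the Airn sites of NPC noXL, a scaled log2 ratio of -0.12 (-0.51 to 0.29) at percentile 40.7. ESC WT had 3.50 times the Igf2r sites of ESC noXL, at 0.28 (-0.14 to 0.74). At 1 or higher after scaling were 10.5% of the genes compared in NPCs and 8.12% of those in ESCs. Scaled in this way, neither member exceeded the excess of its WT list beyond counting error. Scaled to intronic sites alone, the Airn ratio of NPC WT to noXL was 0.52 (0.13 to 0.93), above its list. ΔZF1 could be set only against the noXL of the WT line. Scaled to genic sites, ΔZF1 to noXL was 0.42 (0.03 to 0.84) for Airn in NPCs and 0.06 (-0.43 to 0.58) for Igf2r in ESCs.

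Few positions were shared between lists on Airn. Of its NPC ΔZF1 sites, 8.78% (5.21 to 14.4) had an NPC WT site within 5 nt, against 13.8% over the whole list. That interval included the whole-list share. In reverse, 10.5% of its NPC WT sites (6.54 to 16.3) had an NPC ΔZF1 site within 5 nt, against 11.5% over the list. With positions shifted by 500 and 1000 nt in both directions, the mean share of the ΔZF1 sites was 2.53%. For Igf2r, 36.7% of the ESC ΔZF1 sites (26.9 to 47.7) had an ESC WT site within 5 nt, against 25.7% over the list. After the shifts this share was 5.38%. The ΔZF1 share of Airn lay below that of Igf2r, with intervals that did not overlap, and the genes differ in site density and in how sites are laid out. Of the NPC WT sites on Airn, 3.27% (1.40 to 7.42) had a noXL site within 5 nt, against 1.63% after the shifts. Of the ESC WT sites on Igf2r, 9.89% (6.35 to 15.1) did, against 1.37% after the shifts.

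Other genes of the IGF2 axis and of lysosomal enzyme sorting were counted by the same rule. Of 18 listed genes, 14 could be compared between NPC WT and ESC WT, with 5 at 1 or higher and 0 at -1 or lower, beside 11.5% and 10.4% of all genes compared. In noXL, 4 of 12 were at 1 or higher and 1 at -1 or lower, where the shares over all genes were 11.1% and 12.3%. For WT the median was -0.11, against 0.04 over all genes. The 5 were Igf2, the growth factor that IGF2R clears, with 63 NPC and 0 ESC sites for WT, the receptors Igf1r with 84 and 11 and Insr with 52 and 32, the signalling adaptor Irs2 with 73 and 2, and the mRNA-binding protein gene Igf2bp3 with 140 and 88. M6pr, the other mannose 6-phosphate receptor, was at -0.06, with 36 and 71 sites. Igf2r thus lay below every compared gene of this list.

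Among 20 other imprinted genes and transcripts, 14 were compared, with 6 at 1 or higher and 1 at -1 or lower, beside 11.5% and 10.4% of all genes. Their median was 0.96, against 0.04 over all genes. In noXL, 5 of 10 were at 1 or higher and 2 at -1 or lower, beside 11.1% and 12.3% of all genes. Kcnq1ot1, a long antisense RNA that silences its neighbours in cis as Airn does, had 205 NPC and 198 ESC sites for WT, a scaled ratio of 0.95 (0.67 to 1.23). It therefore had WT sites in both cell types, unlike Airn. H19 had 28 NPC and 0 ESC sites for WT but 0 in both ΔZF1 lists. Plagl1 had 0 and 97 for WT, and 28 and 58 for ΔZF1. In noXL, which came from the WT rescue line, H19 had 5 NPC and 0 ESC sites and Plagl1 had 0 and 34. The mutant line had no such control, so a difference in RNA between the lines cannot be told apart from a difference in contact. Between WT and ΔZF1 in NPCs, 13 of these genes were compared, with 1 at 1 or higher and 2 at -1 or lower, beside 5.76% and 7.36% of all genes. The Kcnq1ot1 counts were 205 and 222 there.

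The gene whose 6 counts were most like those of Airn was Ptpn14, a protein tyrosine phosphatase gene on chromosome 1. It had 0, 0 and 2 sites in the ESC lists and 140, 136 and 77 in the NPC lists. Its distance from Airn over the scaled log2 counts of the 6 lists was 0.46, against a median of 9.36 over the 6045 genes compared. Platr22, Kcnj3, Flnc and Esrp1 followed, at 2.12 to 2.61, each with 0 sites in every ESC list. For Igf2r the nearest were Ly75, Ticrr and Lactb2, at 0.51 to 0.63. Ly75 had 144, 76 and 48 sites in the ESC lists and 24, 11 and 4 in the NPC lists.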

How the data were processed

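Per the authors' methods, reads were demultiplexed and trimmed with Flexbar, aligned to mm10 with STAR, deduplicated by molecular identifier with UMI-tools and merged by condition, and single crosslinked nucleotides were called with PureCLIP; versions are not given in the sources used here. The deposited value is the score the authors obtained from PureCLIP for each 1-nt site. It holds no read count, so depth is unknown, and 6 lists stand for 23 libraries. The lists held 107227 to 451137 sites. The authors' peak and replicate filters were not applied here.

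Genes were those of GENCODE M21 on GRCm38, the build of mm10, and all sites lay within its chromosomes. Bases, repeat masking and windows came from the RefSeq copy of that assembly. Sites were counted on the gene's strand, and ratios used a pseudocount of 1, at least 20 sites and limits of 1 and -1. Poisson intervals are exact, shares carry Wilson intervals, and differences of shares carry intervals derived from them. Genes named besides the members were neighbours within 500 kb with at least 5 sites, genes of fixed lists, and the 5 and 3 genes with counts most like Airn and Igf2r among those with at least 50 sites. The members and lists were chosen with earlier results of these data known. Alternatives changed the scaling, pseudocount, score minimum, base, merging, removal of sites near noXL sites, bins and sharing distance. On simulated ESC ΔZF1 and ESC WT lists with 6354 tested genes, 199 of 200 genes changed 4-fold were found, and 143 of 6154 unchanged genes passed a limit. The changes were planted only in genes with site counts well above the minimum of 20, and the simulated counts carried counting error alone. Recovery in genes near 20 sites, or with spread between libraries, was therefore not tested. The software was Python 3.11.15 with pysam 0.24.0, scipy 1.17.1, numpy 2.4.6, matplotlib 3.10.9 and pandas 2.3.3.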

Additional observations from a re-analysis of the deposited data

How the results depend on the processing

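Of 286 values recomputed under alternatives, 219 stayed within 1.5 times the count reported (at most 3 where that was 0), or within the interval of a ratio or share, and 67 moved. The alternatives for site counts only removed or merged sites. Every site count of 0 therefore stayed 0 by construction and is among the 219. All 46 recomputed ratios of Airn and Igf2r that were past a limit between cell types kept their direction, and 43 stayed past it. Requiring a score of at least 3.02, the median over all lists, left 54 Airn sites in NPC WT and 80 Igf2r sites in ESC WT, and uridine sites alone left 96 and 112, by construction. Without scaling, Igf2r was at -3.12 from ESC WT to NPC WT and at -1.19 from ESC WT to ESC ΔZF1, and Airn was at -0.048 from NPC WT to NPC ΔZF1. With intronic sites alone, Igf2r between the WT lists was at -0.11 (-2.15 to 1.40), which rests on its 9 and 3 intronic sites, and the ΔZF1 and noXL ratios of Igf2r between cell types were at -0.54 and -0.11, the other 2 that left the limit. In the same setting Airn was at -0.027 between NPC ΔZF1 and WT and at 0.52 between NPC WT and noXL. With the score minimum the Airn ratio of NPC ΔZF1 to WT was 0.91 (0.44 to 1.40), and the cause was not tested. The minimum was the same for all lists, whose median scores differ, at 2.41 in NPC WT and 3.93 in NPC ΔZF1. With uridine sites alone, the noXL ratios between cell types were at 2.70 for Airn and -1.42 for Igf2r, and the ratios of NPC WT to noXL at 0.52 for Airn and -0.92 for Igf2r (-2.40 to 1.10). Without scaling, the WT to noXL ratios were at 1.06 for Airn in NPCs and 1.79 for Igf2r in ESCs. On the same nucleotide, 3.38% of Airn ΔZF1 sites and 11.4% of Igf2r ΔZF1 sites had a WT partner, and within 50 nt 26.4% and 86.1% did. With positions shifted as above, the same-nucleotide shares were 0.169% and 0.949%. Those within 50 nt were 17.6% and 21.2%. No paired analysis was possible because sites were called once per group, on its merged libraries, and no replicate could be left out for the same reason. Depth was unknown, so an absent site may be a site too shallow to be called.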
